A study of Mus musculus with 4 samples.

Results

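The genes described are Nodal, Gdf3, Tdgf1, Lefty1, Lefty2 and Fgf4, which encode secreted ligands of pluripotent cells, antagonists of those ligands and a co-receptor. They were taken as all probe sets that the platform annotation assigns to these 6 symbols, and 11 of 45037 probe sets, or 6 of 18193 genes, met that rule. The study hybridised RNA of 4 mouse cultures to Affymetrix oligonucleotide arrays, 1 array to a group. GS cells are germline stem cells, that is, spermatogonial stem cells in long-term culture, and the mGS culture holds the multipotent cells that such cultures can give rise to. ES cells of the established line R1 were the pluripotent reference. The last group was GS cells of Trp53 knockout mice, for which the title adds the strain name ICR. GS medium, a modified StemPro-34, was used for both GS cultures and a standard ES cell medium for the mGS and ES cultures. The labels used here give no strain for the GS and mGS cultures, and no passage, feeder layer or pooling for any culture.

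Nodal is a ligand of the TGF-beta superfamily that signals through activin receptors and the transcription regulators SMAD2 and SMAD3, and it needs a co-receptor of the EGF-CFC family, of which Tdgf1 (Cripto) is one. Nodal signals turn on Lefty1 and Lefty2, whose secreted products bind the ligand or its co-receptor and block it, a negative feedback loop that patterns the early embryo. Gdf3 is a related ligand of pluripotent cells, and Fgf4 is the fibroblast growth factor through which ES cells activate ERK signalling in themselves and become ready to differentiate.

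With 1 array per group no difference has a replicate check, so no p-value is given and differences are described by their size. Precision is limited by there being 4 arrays. Signals are linear intensities after quantile normalization over the 4 arrays. A floor was set at the array median, a signal of 82.7; a lower signal was raised to it and the fold became a bound ("at least"), and values under the floor have no order among themselves. The pluripotent cell markers had a summed signal of 98627 for mGS and 82023 for ES cells against 8309.7 on GS and 8669 on the knockout. For the germ cell markers the sums were 91127 on GS and 90291 on the knockout against 12698 and 10331 on mGS and ES. Without Sall4, which is also a regulator of ES cells, they were 87020.2 and 84887.7 against 4129 and 1932. The knockout label was not checked at its target, because Trp53 was not analysed here. The added poly-A control dap read 271 and 255 on the GS and mGS arrays and 2545 and 3055 on the ES and knockout arrays. The comparisons of ES with GS, ES with mGS, knockout with GS and mGS with knockout therefore cross a difference in these controls. In bulk RNA, fewer cells of a type and less RNA per cell cannot be told apart.

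All 6 genes were above the floor on the mGS and ES arrays, and on the GS and knockout arrays nearly all of their probe sets lay under it. Above the floor were 10 of 11 probe sets on the mGS array, 11 on the ES array, 1 on GS and 1 on the knockout. Over all 18193 genes the share above the floor was 59.9% for mGS, 61.0% for ES, 58.9% for GS and 60.8% for knockout cells. Because the floor is the median of each array, these shares are near each other by construction and do not compare the arrays.

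**Figure D1:**
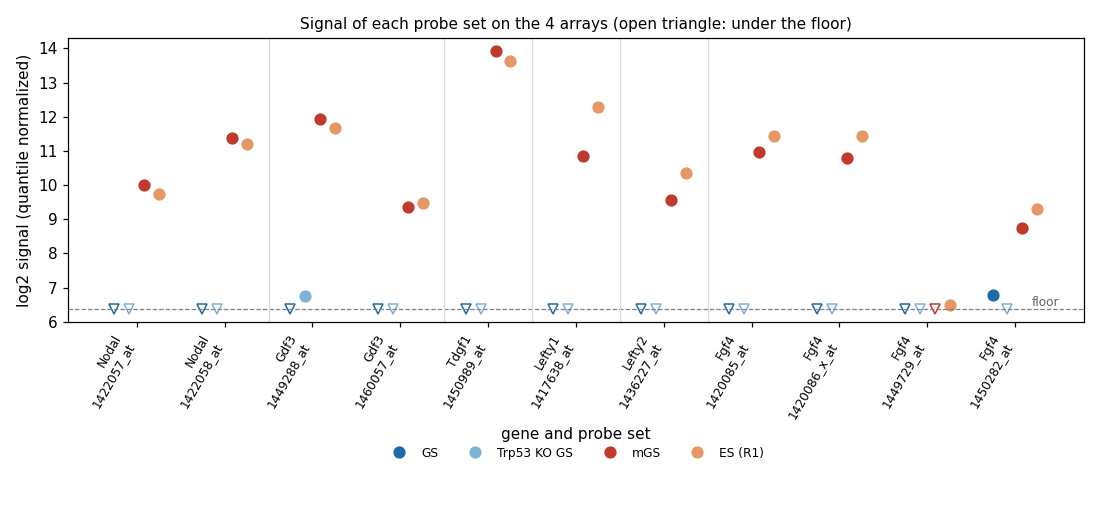
Quantile-normalized log2 signal of the 11 probe sets of the 6 genes on the 4 arrays, 1 point per array, with the floor as a dashed line and open triangles for values under it. The mGS and ES points lie above the floor for all but 1 Fgf4 probe set, whose mGS value is under it, while the only GS and knockout points above the floor are those of 1 Fgf4 and 1 Gdf3 probe set.

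Among the ligands, Nodal was measured by probe sets 1422058_at and 1422057_at. The first read 2653 in mGS and 2336 in ES cells, against 62.9 in GS and 8.49 in knockout cells. The second read 1023 and 852 against 17.1 and 12.9. Both separated the cultures in ES medium from those in GS medium with no overlap, and both GS and knockout values were under the floor. Signal on mGS was thereby at least 32.1-fold above GS by the first probe set and at least 12.4-fold by the second, and the ES array at least 28.3-fold and 10.3-fold.

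Gdf3 probe set 1449288_at read 3885 in mGS, 3228 in ES, 44.3 in GS and 107 in knockout cells. It was the only probe set of the 6 genes above the floor on the knockout array. The knockout fold could therefore be measured and not only bounded, and mGS was 36.2-fold and ES 30.1-fold above it. Against GS the differences were at least 47.0-fold and at least 39.1-fold. The other Gdf3 probe set, 1460057_at, read 658, 711, 19.6 and 10.4 in the same order, which gives at least 7.96-fold for mGS and at least 8.60-fold for ES over GS. Both probe sets place the arrays in the same pairs, with the lower signal giving the smaller bound.

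Fgf4 was measured by 4 probe sets that did not give 1 answer. Probe set 1420085_at read 1991 in mGS, 2777 in ES, 1.39 in GS and 5.65 in knockout cells. Probe set 1420086_x_at, whose suffix marks possible cross-hybridisation, read 1779, 2762, 25.4 and 6.14. These gave at least 24.1-fold and 21.5-fold for mGS over GS and at least 33.6-fold and 33.4-fold for ES over GS. Probe set 1450282_at had the highest mean log2 signal, taken before the floor was applied, and stands for the gene in counts over genes. It read 431 on mGS, 625 on ES, 111 on GS and 54.6 on the knockout, and its GS value was the only one of the 6 genes above the floor on that array. Here mGS was 3.90-fold and ES 5.65-fold above GS, both measured, and at least 5.22-fold and 7.56-fold above the knockout. The fourth, 1449729_at, is annotated to the same transcript sequence as the first pair, yet it read 34.5 on mGS and 90.1 on ES, with 14.1 on GS and 22.4 on the knockout. It stayed under the floor on 3 of 4 arrays and gave no difference between mGS and GS. The order of the arrays, ES above mGS and both above the GS-medium cultures, was shared by 3 of the 4 probe sets, but the size of the difference was not.

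The co-receptor gene Tdgf1 had 1 probe set, which read 15633 in mGS, 12739.6 in ES, 1.49 in GS and 2.08 in knockout cells. No other gene compared between mGS and GS had a larger difference or bound. The bounds were at least 189-fold for mGS and at least 154-fold for ES over either GS-medium array. The gene table holds 2 Tdgf1 pseudogenes, and whether the probe set also binds their transcripts was not tested.

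The antagonist genes Lefty1 and Lefty2 had 1 probe set each. Lefty1 read 1836 in mGS, 4952 in ES, 11.9 in GS and 68.8 in knockout cells. Lefty2 read 753, 1309.6, 25.5 and 32.9. Both had the ES array highest and the mGS array next, with the GS-medium arrays under the floor. Lefty1 was at least 22.2-fold and Lefty2 at least 9.10-fold higher on mGS than on GS, and on ES at least 59.9-fold and 15.8-fold. The proteins are close paralogues, and whether either probe set binds the other transcript was not tested.

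**Figure D2:**
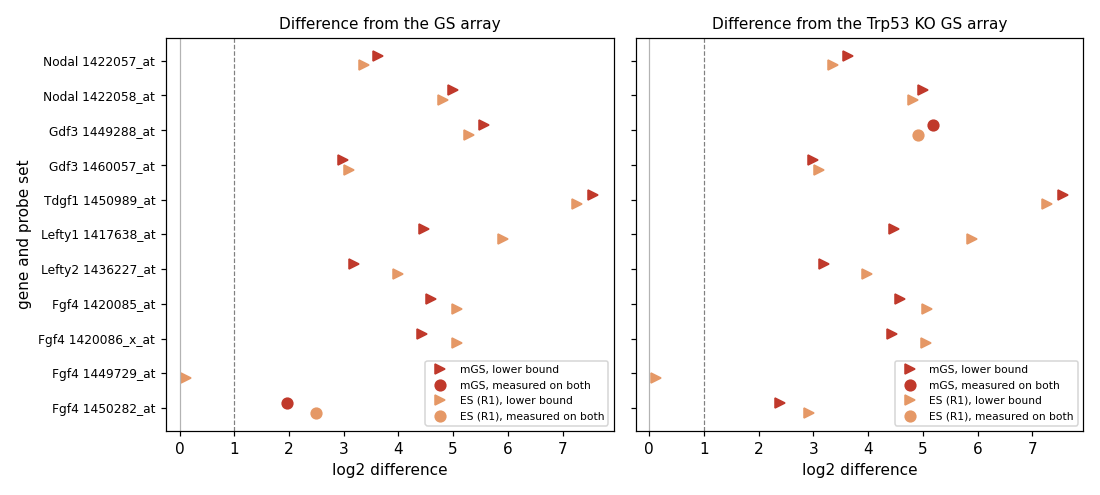
Log2 difference of the mGS and ES arrays from the GS array (left) and from the knockout array (right) for each probe set, with triangles for lower bounds and circles where both arrays were above the floor. All mGS and ES points except the ES point of Fgf4 1449729_at lie beyond the dashed line at 2-fold, and 1449729_at has no mGS point because both arrays were under the floor.

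Counted by gene, 6 of 6 exceeded GS by 2-fold or more on mGS, where 15.3% of 11981 genes compared were higher by that much. Lower by that much were 16.5%. Of their probe sets, 10 of 10 compared were higher, against 15% of all. The median log2 difference of the 6 genes was 4.74, with 5 of the 6 values bounds, against -0.04 over all genes. For ES against GS the count was again 6 of 6, with 17.4% of 12107 genes higher and 17.2% lower, and the median was 5.05 against -0.03. By probe set it was 10 of 11, against 16.9%. These comparisons share the GS array. At least 2-fold in all 4 cross pairs of mGS and ES with GS and the knockout were 6 of 6 genes, against 7.65% of 12897 genes, and 10 of 11 probe sets, against 7.39% of 23844. Between these pairs of arrays the medium differed along with the cells, and the parts of each cannot be told apart.

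RefSeq promoter sequence of assembly GRCm38.p6 was at hand for 3 of the 6 genes, Nodal, Tdgf1 and Fgf4. It is shown because these genes shared the same division of the arrays. The 250 bases before each annotated start are written 5′ to 3′ on the strand of the gene, with matches to the GC box GGGCGG, on either strand, in capitals.
Nodal, chr10:61417722-61417971, plus strand: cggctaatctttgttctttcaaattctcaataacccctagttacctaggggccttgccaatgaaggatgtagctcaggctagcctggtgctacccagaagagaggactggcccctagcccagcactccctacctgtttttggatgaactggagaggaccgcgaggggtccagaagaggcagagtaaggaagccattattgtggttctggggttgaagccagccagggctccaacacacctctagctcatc
Tdgf1, chr9:110946159-110946408, minus strand: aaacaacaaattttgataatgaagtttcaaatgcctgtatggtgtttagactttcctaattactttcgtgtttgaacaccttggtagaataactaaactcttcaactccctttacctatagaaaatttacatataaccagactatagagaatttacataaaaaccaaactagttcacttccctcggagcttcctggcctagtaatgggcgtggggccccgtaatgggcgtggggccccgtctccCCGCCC
Fgf4, chr7:144861136-144861385, plus strand: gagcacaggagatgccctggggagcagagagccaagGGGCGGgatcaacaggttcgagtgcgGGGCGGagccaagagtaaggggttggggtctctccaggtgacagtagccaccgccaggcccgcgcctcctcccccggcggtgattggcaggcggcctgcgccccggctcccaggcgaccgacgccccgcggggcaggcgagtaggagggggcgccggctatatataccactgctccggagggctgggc

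The promoters differed in composition. G and C made up 71.2% of the Fgf4 window, more than in 92.2% of 32851 promoters, 53.2% of the Nodal window and 42% of the Tdgf1 window, where the median was 52.4%. The Fgf4 window held 21 CG dinucleotides, that of Tdgf1 7 and that of Nodal 3, around a median of 6. Of 7 motifs searched on both strands, the GC box alone was matched. It occurred at 2 positions in Fgf4, starting at -214 and -188 from the start site, and at 1 in Tdgf1, at -6, and 32.7% of all promoters held it. The others were the FOXH1 element TGTGNATT, held by 3.18% of promoters, the SMAD box CAGACA by 17.1%, the SMAD palindrome GTCTAGAC by 0.167%, the POU octamer ATGCAAAT by 1.60%, the SOX element ACAATG by 10.7% and the TATA box TATAAA by 12.4%. No match says only that these letters are not in the window.

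Between the pluripotent cultures 5 of the 6 genes lay within 2-fold. The exception was the antagonist gene Lefty1, which was 2.70-fold higher on ES. Among 11816 genes 12% differed by that much, 6.9% higher and 5.13% lower, so 1 of 6 is not far from the background. Lefty1 exceeded 96.8% of genes in this difference and Lefty2, at 1.74-fold, 90.0%. The Fgf4 probe sets above the floor on both arrays gave 1.40-fold, 1.55-fold and 1.45-fold. Nodal was 1.14-fold and 1.20-fold and Tdgf1 1.23-fold higher on mGS. Gdf3 was 1.20-fold higher on mGS by 1 probe set and 1.08-fold higher on ES by the other. For scale, differences from separate probe sets of a gene had a standard deviation of 0.45 on the log2 scale over 4663 genes. That is spread within these arrays and holds nothing of the variation between cultures, which was not measured. The log2 differences of Lefty1, 1.43, and Lefty2, 0.80, were larger than this value, those of Fgf4 were 0.48 to 0.63, and those of Nodal, Gdf3 and Tdgf1, from -0.30 to 0.11, were smaller.

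**Figure D3:**
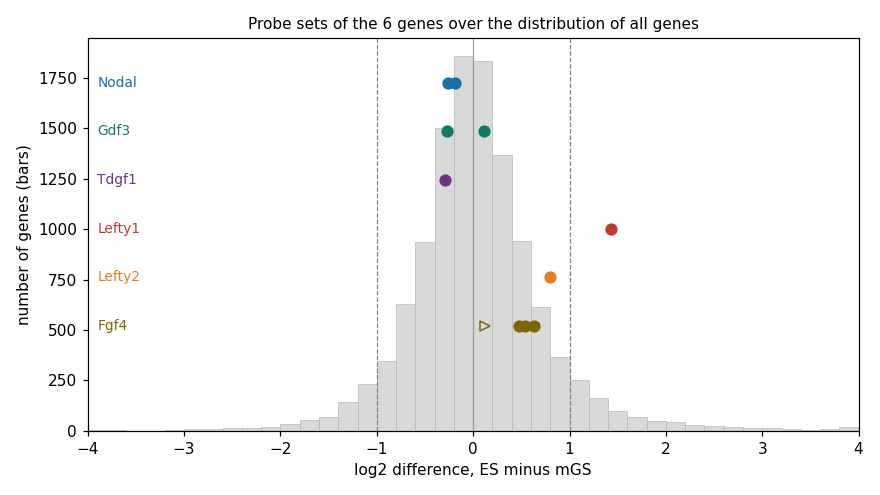
Log2 difference of the ES from the mGS array for each probe set of the 6 genes (coloured points, 1 row per gene, open triangle for a bound) over the number of genes at each difference (grey bars, with values beyond 4 in the outermost bars). Only the Lefty1 point lies beyond the dashed line at 2-fold, followed by Lefty2 at 0.80, and the Nodal and Tdgf1 points lie left of 0.

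The Lefty genes went against the trend of their chromosome in this comparison. They lie near each other on chromosome 1, and the 655 genes of that chromosome had a median log2 difference of -0.37 for ES against mGS. Medians for the chromosomes of the other genes were between 0.03 and 0.08. Against GS the chromosome 1 median was 0.26 on mGS and -0.04 on ES. Fibroblast markers also differed between the ES and mGS arrays: 14 of 15 compared were at least 2-fold higher on ES, against 6.9% of all genes. In the comparison of ES with GS 15 of 15 were higher, against 17.4% of all genes. For mGS against GS 5 of 10 were higher and 1 lower, against 15.3% and 16.5% of all genes. The summed signal of these markers was 55924 on ES against 7337 on mGS. On the GS and knockout arrays the sums were 2131 and 4262. Neither the part of such cells nor that of the poly-A control difference in the Lefty values was tested.

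Between the knockout and GS arrays, 9 of 11 probe sets were under the floor on both, so most of these genes could not be compared. Gdf3 was at least 1.30-fold higher and Fgf4, by 1450282_at, at least 1.34-fold lower on the knockout array. The 576 genes of chromosome 6, where Gdf3 lies, had a median log2 difference of 0.51 in this comparison, against 0.07 over all genes. The Gdf3 value of 0.38 is a lower bound, so it cannot be ranked against that median. With the floor at the 30th percentile the Gdf3 difference was 1.28. With the main floor only Gdf3 and Fgf4 of the 6 genes could be compared, and 0 of 2 passed 2-fold. Among all 11623 genes compared 16.7% did, 1135 or 9.77% higher and 805 or 6.93% lower. With arrays centred on their medians that split was 838 and 1072. The count for the 6 genes depends on the floor. At the 30th percentile of each array 4 of the 6 passed 2-fold, Lefty2 did not and Tdgf1 could not be compared. Of the 15189 genes compared at that floor 19.3% passed. Lefty1 and Gdf3 were higher and Nodal and Fgf4 lower. The differences of Nodal and Lefty1 rest on signals under the main floor on both arrays, and those of Gdf3 and Fgf4 on 1 signal under it and 1 above.

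The rest of the Nodal pathway was described from lists of genes by role. For scale, the all-gene shares past 2-fold were 15.3% higher and 16.5% lower for mGS against GS. They were 17.4% and 17.2% for ES against GS, and 6.9% and 5.13% for ES against mGS. Ligands of the Nodal, activin and TGF-beta branch and the convertases that cut them gave 5 genes to compare between mGS and GS, of which 3 passed 2-fold upward and 1 downward. Their median was 1.06. Inhbb, a subunit gene of activin, was at least 11.6-fold higher and Pcsk6, a convertase that processes Nodal, 3.11-fold higher, while Tgfb1 was 3.54-fold lower. On ES against GS, 4 of 6 were higher and none lower, with a median of 1.54, and the activin subunit gene Inhba was 20.6-fold higher. Inhba read 89 on GS, 185 on mGS, 1834 on ES and 71 on the knockout array. It was 9.93-fold higher on ES than on mGS, a contrast in which the fibroblast markers given above also were higher. Of the BMP and GDF ligands, 1 of 6 was higher and 2 lower on mGS than on GS, with a median of -0.32. Bmp4, a ligand of the BMP branch, was at least 17.2-fold higher. Lower were Bmp7, by at least 4.52-fold, and Gdf10, by at least 4.0-fold. Bmp4 was 3.28-fold lower on ES than on mGS.

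Other antagonists did not follow the Lefty genes on the mGS array. Of 9 compared with GS, 1 was higher, the transmembrane gene Tmeff1 by 2.94-fold, and 2 were lower, the BMP antagonist gene Chrd by at least 3.60-fold and the latent TGF-beta binding protein gene Ltbp3 by 2.55-fold, with a median of -0.15. On the ES array 6 of 10 were higher than on GS and 1 lower, with a median of 1.51, and 5 of 9 higher than on mGS, with a median of 2.28; with the mean over probe sets the latter count was 3. Follistatin, Fst, which binds activin, was 8.10-fold higher on ES than on mGS, Ltbp1 6.85-fold and Grem1 6.71-fold. Fibroblasts are known to express these genes too, and the part of such cells was not tested.

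Among receptor genes, Acvr1b, Tgfbr1, Acvr2a and Acvr2b were above the floor on all arrays. Acvr1b, a type I activin receptor gene, and Tgfbr1, the type I TGF-beta receptor gene, read 862 and 1600 on GS, 744 and 862 on mGS, 596 and 889 on ES, and 1220 and 1344 on the knockout array. The type II genes Acvr2a and Acvr2b read 405 and 1153 on GS, 578 and 567 on mGS, 378 and 805 on ES, and 233 and 893 on the knockout array. Acvr1c, a further type I receptor gene of this pathway, was under the floor on every array. Of 7 receptor genes compared between mGS and GS, 3 were lower, Tgfbr3 by 5.50-fold, Tgfbr2 by at least 2.80-fold and Acvr2b by 2.03-fold. The remaining EGF-CFC gene, Cfc1, was at least 2.43-fold higher, and the median was -0.89. The count of 3 lower was 4 with the values as deposited and 1 with the median over probe sets, and with the floor at the 60th percentile 0 were higher. On ES against mGS 2 were higher, Tgfbr2 by at least 7.51-fold and Tgfbr3 by 3.94-fold, or 1 with the mean over probe sets. Cfc1 was at least 2.43-fold lower on ES.

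Intracellular members went both ways between mGS and GS, with 5 of 15 higher and 2 lower and a median of -0.15. Foxh1, the SMAD partner through which Nodal acts on its targets, read 50.8 on GS, 473 on mGS, 936 on ES and 33.2 on the knockout array. It divided the arrays as the 6 genes did and was at least 5.72-fold higher on mGS and 11.3-fold on ES than on GS. Skil, a SMAD repressor that is itself induced by the pathway, was 6.68-fold higher on mGS, the phosphatase gene Ppm1a 3.73-fold, the inhibitory Smad7 2.55-fold and Tgif1 2.14-fold. Smad2 and Ski were 2.69-fold and 3.01-fold lower by the probe set of highest mean, but with the mean or the median over their probe sets 0 genes of this list were lower by 2-fold. By that probe set the signal of Smad2 was 3974 on GS and 5091 on the knockout against 1476 on mGS and 1041 on ES. On ES against GS 4 were higher and 3 lower, or 1 lower with the mean over probe sets.

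Genes known as targets of Nodal or activin signals went both ways. Of 8 compared between mGS and GS, 4 passed 2-fold upward and 2 downward, and the median was 1.09. Nanog, at least 97.3-fold, and Skil and Smad7 were among the higher ones, and Pmepa1, a feedback inhibitor, was 3.01-fold higher. Lower were the endoderm gene Foxa2, by at least 8.29-fold, and the LIM homeobox gene Lhx1, by at least 10.7-fold. Of 9 compared between ES and GS, 5 passed 2-fold upward and 2 downward, and the median was 1.93. Eomes, a T-box gene of the primitive streak, was at least 3.80-fold higher on ES than on GS and 2.15-fold higher than on mGS. With the median over probe sets 0 genes of this list were higher on ES than on mGS. The signals of Eomes were 146 on mGS and 314 on ES, not far above the floor. Several of these genes are also on the list of regulators below or the list of intracellular members, so the counts are not independent.

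**Figure D4:**
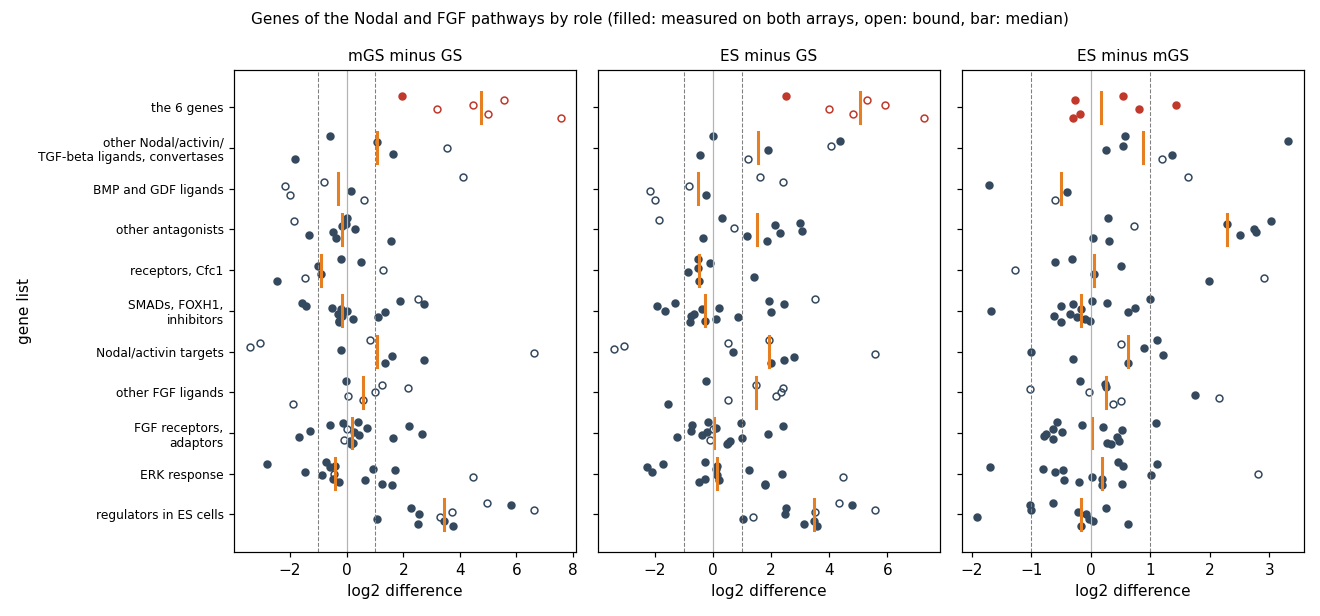
Log2 difference between arrays for each gene of the Nodal and FGF pathway lists (filled points where both arrays were above the floor, open points for bounds, orange bars for list medians), for mGS minus GS, ES minus GS and ES minus mGS. The 6 genes (red) and the regulators of ES cells lie to the right of 0 in both comparisons with GS, with medians of 4.74 and 3.43 for mGS, while the other roles spread to both sides.

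Of the other fibroblast growth factors, 21 were measured and 7 could be compared between mGS and GS. Higher were Fgf17, at least 4.48-fold, Fgf15, at least 2.38-fold, and Fgf18, at least 2.02-fold, and Fgf9 was lower by at least 3.75-fold. The median was 0.59. The count of 3 was 1 with the floor at the 60th percentile and 9 with none. Fgf5, a marker of the primed epiblast, read 1.86 on GS, 124 on mGS, 417 on ES and 37.7 on the knockout array and was 3.35-fold higher on ES than on mGS. Fgf7, known from fibroblasts, was at least 4.45-fold higher on ES than on mGS. Most of the family thus stayed under the floor on both arrays of the comparison. By the same choice of probe set Fgf4 itself was 3.90-fold higher, below the bound of Fgf17. By its probe set 1420085_at it was at least 24.1-fold higher, above that bound.

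Among FGF receptor and adaptor genes, 3 of 16 were higher and 2 lower on mGS than on GS, with a median of 0.19, so most lay within 2-fold. These counts were near the all-gene shares of 15.3% higher and 16.5% lower. The adaptor gene Gab1 was 6.32-fold, Fgfr2 4.64-fold and Hs6st1 3.08-fold higher. The heparan sulfate sulfotransferase gene Hs2st1 was 3.18-fold lower, while a different probe set of the gene gave a difference past 2-fold in the opposite direction, and Fgfrl1, a receptor without a kinase domain, 2.45-fold lower. With the mean over probe sets 1 was lower. Fgfr1 was present throughout, at 1166 on GS, 783 on mGS, 701 on ES and 527 on the knockout array. The ERK response genes went both ways on mGS against GS, 4 of 15 higher and 2 lower, with a median of -0.42. Myc was at least 22.2-fold, Etv5 3.25-fold, Spry4 3.0-fold and Spry2 2.40-fold higher, and Dusp5 was 7.0-fold and Fos 2.79-fold lower. On the knockout array 7 of 14 of these genes were lower than on GS and none higher, with a median of -1.03, against 6.93% of all genes lower. With 1 array each, the knockout, a possible strain difference and the poly-A control difference given above cannot be told apart.

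The transcription factors known to act at these genes in ES cells were higher on both pluripotent arrays, 11 of 11 against GS in each case. Over all genes 15.3% were higher on mGS and 17.4% on ES. The medians of the 11 were 3.43 for mGS and 3.46 for ES. Sall4 had the smallest differences from GS, 2.09-fold on mGS and 2.05-fold on ES. Against the knockout array it was only 1.59-fold and 1.55-fold higher. Sox2 and Pou5f1, which together bind the Fgf4 enhancer, were above the floor on GS too, at 1070.1 and 1847, against 11518 and 10829 on mGS and 11768 and 10189 on ES. On the knockout array Sox2 read 185 and Pou5f1 2229, so Sox2 was 5.79-fold lower there than on GS. Nanog, Otx2 and Prdm14, by contrast, were under the floor on both GS-medium arrays, as Nodal, Tdgf1 and the Lefty genes were. Between ES and mGS, 3 of 11 were at least 2-fold lower on ES, against 5.13% of all genes, and none was higher by that much. These were Prdm14 by 3.76-fold, Klf2 by 2.05-fold and Nanog by 2.02-fold. The Lefty genes and Fgf4 lay on the other side of 0 from these 3 regulators, but not from all 11. Of the 8 within 2-fold, Tcf7l1, Klf4 and Sox2 were higher on ES, by 0.61, 0.25 and 0.03 on the log2 scale. The rest were lower, and the median of the 11 was -0.17.

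Neighbouring genes were examined, 3 named protein-coding genes on each side of each of the 6. Of 31 distinct neighbours 26 were measured and 22 could be compared between mGS and GS, of which 8 were at least 2-fold higher and 2 lower, against 15.3% and 16.5% of all genes. Of the 8 higher ones 4 lay beside Gdf3 on chromosome 6. Its neighbours Dppa3, Nanog and Slc2a3, on one side, were 10.1-fold, at least 97.3-fold and 8.56-fold higher, and Mfap5, on the other, at least 3.91-fold. Dppa3 is a maternal factor and pluripotency marker and Slc2a3 a glucose transporter gene. Unlike Gdf3, Dppa3 and Slc2a3 were above the floor on GS, at 241 and 1648, and higher still on the knockout array by 4.40-fold and 2.65-fold, in the comparison in which chromosome 6 had the median of 0.51 given above. At Tdgf1 on chromosome 9, the next gene, Lrrc2, read 2098 on mGS and 910.1 on ES against 26.9 on GS, at least 25.4-fold and 11.0-fold higher. Rtp3, Ltf and Tmie, also near Tdgf1, were under the floor on every array.

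At Nodal on chromosome 10 no neighbour was higher by 2-fold on mGS or ES than on GS, and Lrrc20 and Pald1 were 4.97-fold and 2.22-fold lower on mGS. Around the Lefty genes, Ephx1 was 3.31-fold and 4.20-fold higher on mGS and ES, and Tmem63a at least 2.94-fold higher on ES. Tmem63a was also 2.88-fold higher on ES than on mGS, as Lefty1 was, whereas Sde2, on the other side of Lefty2, was 1.87-fold lower. At Fgf4 on chromosome 7, the neighbouring Fgf15 was at least 2.38-fold and 2.81-fold higher, Fgf3 was near or under the floor on every array, and Ccnd1, a cyclin gene, was 3.64-fold higher on ES and 1.24-fold on mGS.

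**Figure D5:**
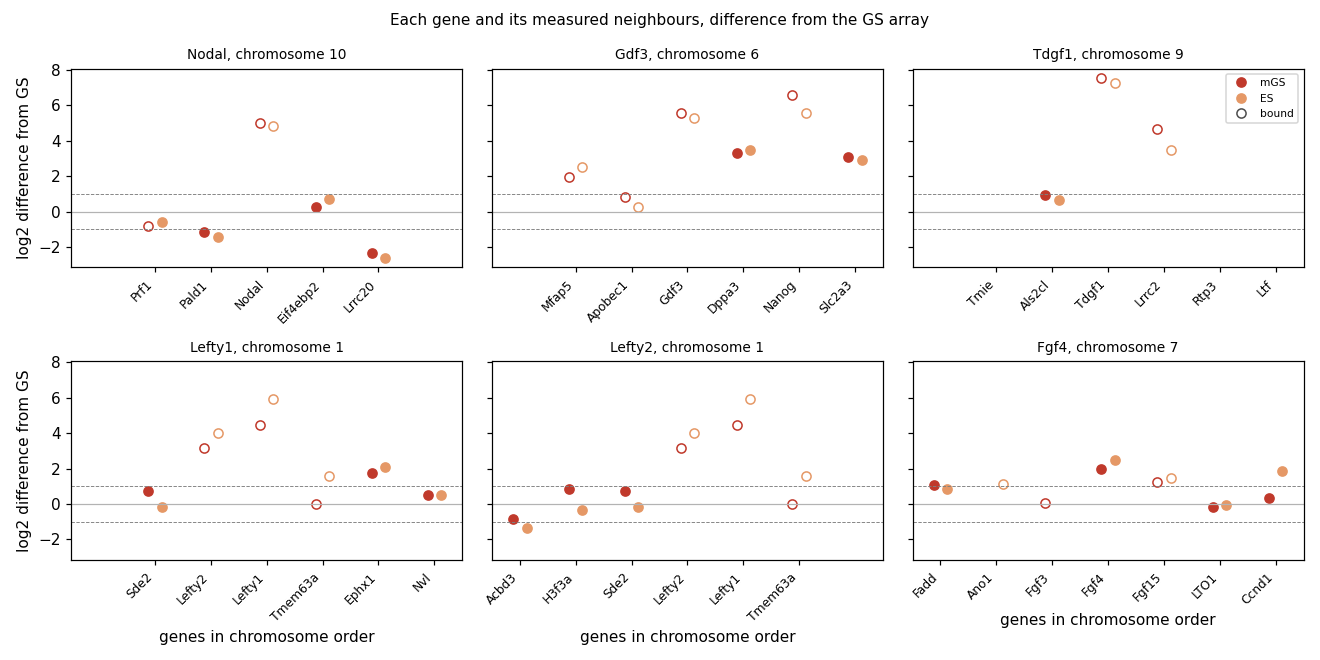
Log2 difference of the mGS and ES arrays from the GS array for each of the 6 genes and those measured among the 3 named protein-coding neighbours on either side, in chromosome order but not to scale (filled points measured on both arrays, open points bounds, no point where a gene was under the floor on both arrays). Dppa3, Nanog and Slc2a3 beside Gdf3, and Lrrc2 beside Tdgf1, lie above 2-fold on both arrays, while the neighbours of Nodal do not.

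Likeness to each gene was taken as the root mean square distance between centred log2 profiles with the floor applied, over the 4 arrays and 12896 other genes, so a small value means the same steps between arrays. Nodal and Gdf3 were near each other, at 0.21, where Gdf3 was number 12 in the order from Nodal and Nodal number 8 in the order from Gdf3. Nearest to Nodal after 1 predicted gene were Gtsf1l, at 0.13, the nuclear receptor gene Nr0b1, at 0.13, and Mylpf, at 0.14, and then Mymx and Enpp3. Nr0b1 and Gtsf1l were also among the 5 nearest to Gdf3, with Bcat1, Plac8 and Ctnnal1. Tdgf1 had 1 close match, the RNA-binding protein gene L1td1, at 0.08, which read 13621 on mGS and 12663 on ES. The next, Stmn2, Tet1, Nanog and Mtm1, were at 0.65 to 0.72.

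The Lefty genes were not each other's nearest matches. From Lefty1, Lefty2 was number 58 and Nodal number 9, and the nearest were the hormone gene Trh, at 0.24, and the smooth muscle and fibroblast gene Tagln, at 0.39, with Gng3, Car2 and Basp1. Trh read 2375 on mGS and 4184 on ES. Nearest to Lefty2 were the growth factor gene Pdgfc, at 0.03, the semaphorin gene Sema3e, Lgals9, Ptgis and the keratin gene Krt8. For Fgf4, as probe set 1450282_at, the nearest were Ubqln4 and the de novo DNA methyltransferase gene Dnmt3b, both at 0.07, Bvht, Ttc7b and the polyamine synthesis gene Odc1. Its distance to Tdgf1 was 2.51, near the far end of the order. Of the 6 genes, Fgf4 by this probe set had the smallest step from GS and Tdgf1 the largest. These distances describe 4 arrays and rest on the floor wherever a gene was under it.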

How the data were processed

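The values the authors deposited are linear intensities, 1 for each probe set of each array. Every array had a mean of 500 after 2% of values were trimmed at each end, so a common scaling had been applied; the summarising software and genome build are not given in the sources used here. Per the labels' protocols, RNA was extracted with Trizol and labelled with biotin. After 64 controls were set aside, log2 values were quantile normalized. Of 45037 probe sets, 34945 had 1 gene symbol and 34741 of these matched the GRCm38.p6 gene table; 932 with several symbols were left out and 9160 are unnamed here. A gene took the probe set of highest mean log2 value. The floor was the array median. Named genes followed a fixed rule: the 6 genes, up to 3 genes per list and comparison with the largest difference of 2-fold or more, the 5 nearest profiles and 3 neighbours per side. Other list genes named were chosen after their values were seen. The genes and lists were chosen with earlier results of these data known. The steps were tested on simulated data. Python 3.11.15, numpy 2.4.6, pandas 2.3.3 and matplotlib 3.10.9 were used.

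Marker lists for primed epiblast, endoderm, mesoderm, neuroectoderm, trophectoderm and Sertoli cells gave 3 of 7, 3 of 6, 0 of 5, 0 of 3, 3 of 4 and 1 of 5 genes at least 2-fold higher on mGS than on GS, and 1, 2, 0, 3, 0 and 2 lower. Over all genes 15.3% were higher and 16.5% lower. The germ cell marker sum without Sall4 was added after seeing the data. Alternatives tried: unnormalized deposited values, median centring, floors at the 30th and 60th percentiles, none, a pseudocount of 32, genes summarised by the mean or median over probe sets, omission of suffixed probe sets and keeping those with several symbols.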

Additional observations from a re-analysis of the deposited data

How the results depend on the processing

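Against the main values, 47 of 50 recomputed counts of the 6 genes were within 1.5 times. The exceptions were knockout against GS, where 0 genes passed 2-fold with the main floor. It was 4 with the floor at the 30th percentile, 4 without a floor and 2 with a pseudocount of 32 and no floor. Each had at least 1 of its signals under the main floor. The shares over all genes were 16.7% with the main floor and 19.3%, 31.7% and 14.0% with the others, in that order. No difference of the 6 genes that passed 2-fold changed sign. Of 194 recomputed differences 49 moved by more than the spread between probe sets, through the floor or the choice of probe set: Tdgf1 on mGS against GS ranged from 6.67 to 13.36 on the log2 scale, Lefty1 from 3.58 to 7.28, Lefty2 from 2.29 to 4.88, Gdf3 from 4.27 to 6.46, Nodal from 4.11 to 5.40 and Fgf4 from 1.49 to 4.98. On ES against mGS Lefty1 stayed between 1.40 and 1.55 and Lefty2 between 0.70 and 0.84. Of 1520 recomputed list counts 219 moved by over 1.5 times. With median centring, the all-gene median moved by -0.16 (knockout minus GS) and -0.11 (ES minus mGS). Counts over all genes past 2-fold grew with genes near background: without a floor they were 3999 higher and 4021 lower for mGS minus GS (main 1838 and 1976), 4168 and 4100 for ES minus GS (2106 and 2083), 2747 and 2574 for ES minus mGS (815 and 606) and 3166 and 2597 for knockout minus GS (1135 and 805). With the floor at the 30th percentile they were 1397 and 1167 for ES minus mGS and 1759 and 1174 for knockout minus GS, and with a pseudocount of 32 they were 1219 and 974 for ES minus mGS. No paired analysis was possible because each group has 1 array. Signals under the floor limit what can be said of the GS and knockout arrays.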
